A study of Mus musculus with 16 samples.

Results

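The genes described here are the interleukins and their receptors, 83 of the 55291 gene symbols in the deposited tables. A symbol was taken as a member where it begins with Il followed by a digit, and where a symbol had several transcripts the one with the highest mean fragment count was kept. By their known roles the members were 36 ligands, 38 receptor subunits, 7 antagonists or decoys that hold ligands back, and 2 others, the enzyme gene Il4i1 and the antisense RNA Il1bos. They were measured by RNA sequencing of spleen cell suspensions from male C57BL/6 mice, in 16 libraries that each pooled the spleens of 2 mice. Wild-type mice (WT) and mice lacking PKR (KO), the double-stranded RNA sensor kinase encoded by Eif2ak2, were taken before treatment (day 0) or on day 1, 2 or 5 of treatment with imiquimod (IMQ), with 2 libraries in each of the 8 groups. Imiquimod, an agonist of Toll-like receptor 7 used to provoke psoriasis-like skin inflammation, was given daily as 62.5 mg of 5% cream on the shaved back. Day 0 mice were untreated and no vehicle group was analysed here, so the drug and the handling cannot be told apart.

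Interleukins are secreted proteins through which leukocytes instruct each other, and each acts on a receptor built from a few subunits, many of them shared. Receptors of the IL-1 family signal through MyD88 and NF-kB, whereas most other interleukin receptors lack enzymatic activity and signal through JAK kinases and STAT factors. In the spleen, myeloid and dendritic cells are known as sources of IL-1, IL-6, IL-12 and IL-27, while T cells, B cells and innate lymphoid cells carry many of the receptors, with IL-7 receptor a mark of naive and memory T cells.

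Libraries held 35026754 to 67333830 fragments, and levels below are adjusted FPKM, that is fragments per kilobase of transcript and per unit of library size (FPKM), divided by the library's TMM scaling factor (0.904 to 1.2). Spleen markers were present on day 0 in both genotypes, with mean levels in WT of 20.6 for Cd3e and 4.15 for Spic, while Alb and Myh6, of liver and heart, were at 0. Eif2ak2 stood at 5.72 and 5.99 in WT day 0 and 23.4 and 22.4, 7.64 and 10, and 6.80 and 6.98 on days 1, 2 and 5. In KO libraries it was 2.83 and 3.45, then 10 and 8.53, 11.1 and 5.15, and 3.68 and 4.39, so transcripts of the gene remained, and only the library labelled KO_D2 replicate 1 (11.1) lay above the WT libraries of its day. Which exon is deleted was not given in the sources used here. All statements on KO day 2 include that library unless said otherwise. In bulk RNA, fewer cells of a type and less RNA per cell cannot be told apart. The day also moved marker lists of whole cell types, and their values stand beside the results they accompany.

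Receptor transcripts outweighed ligand transcripts in every group. Summed over the 38 receptors, levels were 322 and 280 in the WT day 0 libraries and 236 and 242, 182 and 171, and 205 and 175 on days 1, 2 and 5. The KO libraries gave 315 and 308, then 239 and 215, 144 and 175, and 177 and 197. In both genotypes every treated library lay below both day 0 libraries.

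Summed over the 36 ligands, WT levels were 66.6 and 60.7 on day 0 and 134 and 81.2, 48.9 and 55.1, and 54.6 and 50.6 on days 1, 2 and 5. KO levels were 66.1 and 75.8, then 109 and 98.3, 53.9 and 80.5, and 40.6 and 53.2. The ligand sum was thus highest on day 1, when the receptor sum was already lower. The 7 antagonists and decoys summed to means of 5.87, 19.9, 9.95 and 4.44 on the 4 days in WT and to 6.26, 23.6, 15.5 and 4.48 in KO, also highest on day 1.

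**Figure D1:**
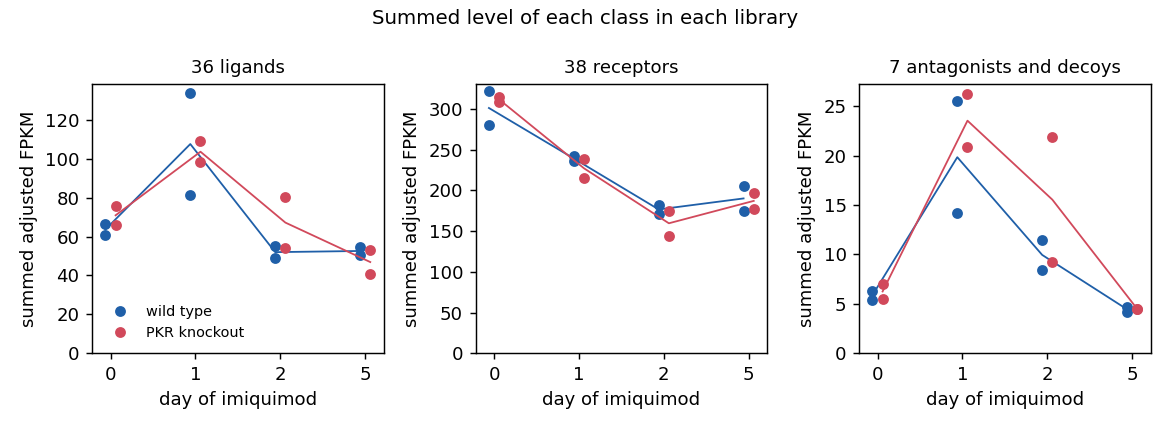
Summed adjusted FPKM of ligands, receptors, and antagonists and decoys on each day of imiquimod (days evenly spaced), with 1 point per library, blue for wild type and red for PKR knockout, and lines through the group means. Ligand and antagonist sums are highest on day 1, and receptor sums of all treated libraries lie below those of day 0.

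The abundant members were few. Il2rg, the common gamma chain of the receptors for IL-2, IL-4, IL-7, IL-9, IL-15 and IL-21, had the highest level when averaged over the 8 groups (52.4, with group means of 35.1 to 71.1), followed by the IL-21 receptor Il21r (30.5), Il10ra (27.0), the T cell chemoattractant Il16 (26.9) and Il1b (26.7). Il16 and Il1b carried most of the ligand sum: without Il16, the WT ligand sum was 24.9 on day 0 and 80.1 on day 1. On WT day 0, 6 of 36 ligands and 22 of 38 receptors reached a mean level of 1 or more, and on day 1 the numbers were 9 and 21.

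Of the 83 members 51 had enough counts to be tested: 15 ligands, 31 receptors, 3 antagonists or decoys and both others. Il33 was the only one of these with fewer than 10 counts in each of the 4 day 0 libraries. Changes from day 0 were tested within each genotype with edgeR's quasi-likelihood test, adjusted by Benjamini-Hochberg over all 18789 genes tested, and a change was called at an adjusted p under 0.05. Changes are on the log2 scale. Each call was repeated under 25 alternatives, 16 of which left out a single library, and where leaving out a library ended a call its adjusted p is given with that library's name. Paired values are the levels of replicates 1 and 2, and KO levels follow in the same order of days as those of WT. Imiquimod treatment went with very broad changes in these libraries, so each count of members is set against the share of all genes called.

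On day 1 of WT, 29 of the 51 tested members were called, 12 higher and 17 lower, where 44.6% of all genes tested were called. The direction differed by role. Of the 15 ligands 7 rose and 1 fell, with a median log2 change of 1.35, and of the 31 receptors 3 rose and 15 fell, with a median of -0.47, beside a median of -0.04 over all genes, of which 23.3% rose and 21.4% fell. On KO day 1, 32 were called against 41.6% of all genes. There 8 ligands were higher and 2 lower and 4 receptors higher and 15 lower, beside 22.1% of all genes higher and 19.5% lower. Without KO_D0 replicate 1 the KO count was 21 instead of 32.

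On day 2 of WT, 28 were called (45.2% of all genes), 5 higher and 23 lower. Receptors accounted for 19 of the falls, with a median log2 change of -0.85 over the 31 tested, while 3 ligands rose and 3 fell. Of all genes 23.9% rose and 21.3% fell, with a median of -0.017. On KO day 2, 34 were called (49.3% of all genes), with 20 receptors lower and 2 higher. Leaving out the library labelled KO_D2 replicate 1 gave 31. On day 5, 21 were called in WT (41.2%, beside 39.4% of all genes), 4 higher and 17 lower. In KO 24 were called (47.1%, beside 44.5% of all genes), 7 higher and 17 lower. The member shares on day 5 thus lay near those of all genes. By direction, 22.4% of all genes were higher and 17.0% lower in WT, and 24.2% and 20.3% in KO.

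Comparisons within a genotype share its day 0 libraries, while those of WT and KO share none. Of the 51 tested members 25 were called in the same direction in both genotypes on day 1, 26 on day 2 and 19 on day 5 (49%, 51% and 37.3%), and 0 were called in opposite directions. Of all 18789 genes tested, 29.9%, 38.7% and 31.8% were called in the same direction in both genotypes on those days, and 30, 2 and 3 genes in opposite ones. The day of the highest mean level was the same in both genotypes for 39 members and that of the lowest for 37. Day 0 was the highest day for 17 of 31 receptors in WT and 19 in KO, and day 2 the lowest for 17 and 20. Of the 15 ligands, 8 in WT and 7 in KO were highest on day 1. Highest and lowest days were not counted over all genes, so these numbers have no share to stand beside.

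**Figure D2:**
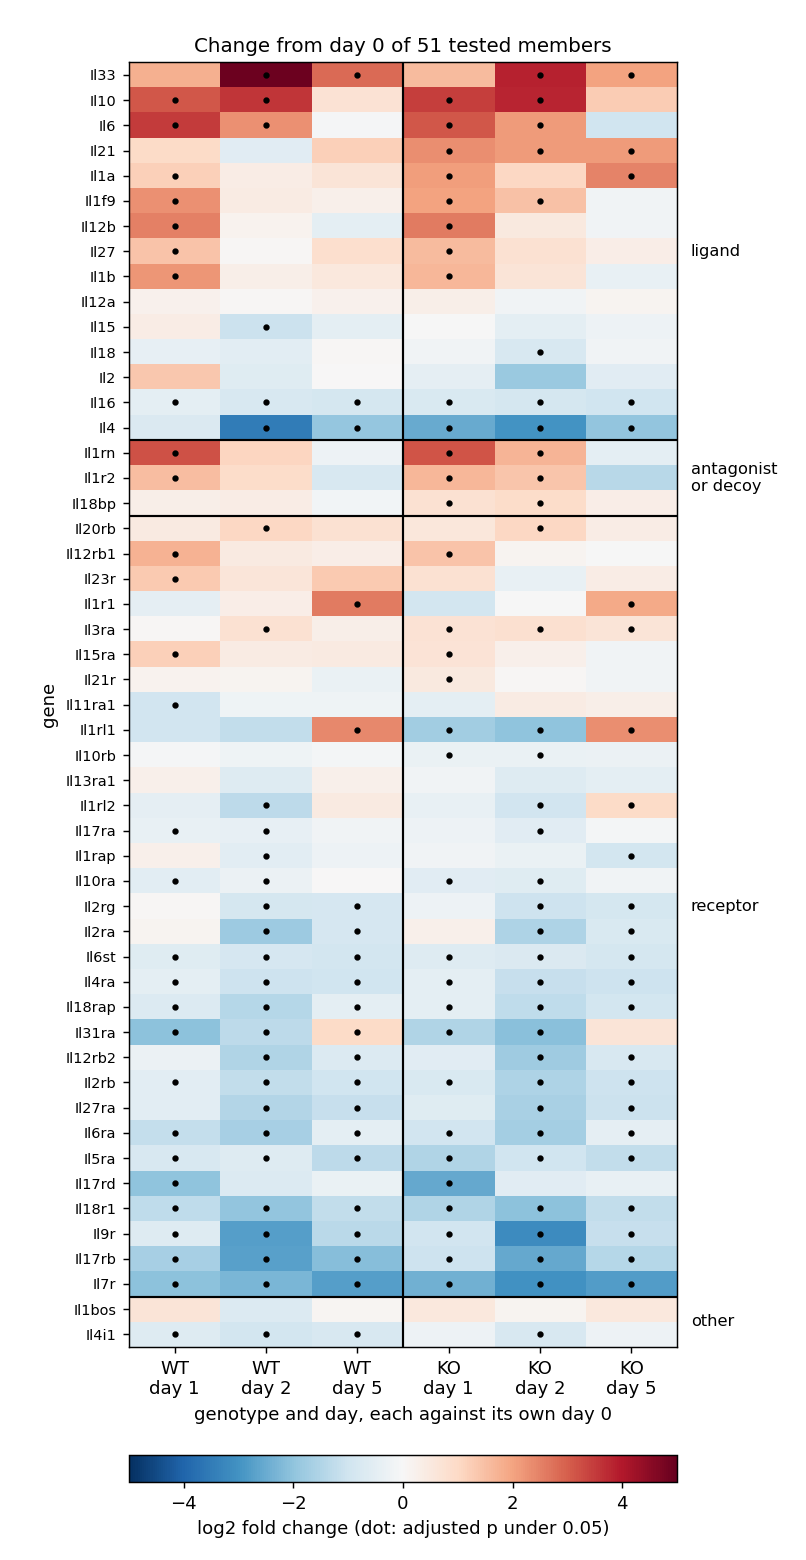
Log2 fold change from day 0 of the 51 tested members (rows, by role and then by mean change) on days 1, 2 and 5 in wild type (WT) and PKR knockout (KO), red for higher and blue for lower, with a dot where the adjusted p of edgeR is under 0.05. Most dots among ligands and antagonists on day 1 are red and most among receptors are blue, and the columns of the genotypes resemble each other.

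Among the ligands, the myeloid cytokines Il6, Il10, Il12b and Il27 were higher on day 1 in both genotypes. Il6 (mm10, chromosome 5, 30013144 to 30019981), which acts through the IL-6 receptor and gp130 and drives acute-phase responses, stood at 0.131 and 0.223 in WT day 0, and at 1.98 and 2.21, 0.764 and 1.01, and 0.151 and 0.198 on days 1, 2 and 5. In KO it was 0.291 and 0.311, then 3.52 and 1.72, 1.15 and 1.48, and 0.133 and 0.169. Both libraries of days 1 and 2 lay above both of day 0 in each genotype, and the WT day 5 libraries lay within the day 0 range or below its upper end. The log2 change on day 1 was 3.51 (SE 0.341, adjusted p = 3.66e-07) in WT and 3.12 (SE 0.33, adjusted p = 9.03e-07) in KO, and on day 2 it was 2.28 (adjusted p = 4.34e-05) and 2.13 (adjusted p = 4.51e-05).

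Il10 (mm10, chromosome 1, 131019845 to 131024974), an anti-inflammatory cytokine of myeloid cells, B cells and T cells, had its highest mean level on day 2 in both genotypes. WT levels were 0.318 and 0.20 on day 0 and 2.03 and 2.31, 3.27 and 2.75, and 0.464 and 0.373 on days 1, 2 and 5. KO levels were 0.189 and 0.23, then 3.09 and 1.54, 2.28 and 3.61, and 0.278 and 0.744. The groups of days 1 and 2 did not overlap with day 0. The change was 3.10 (SE 0.415, adjusted p = 1.79e-05) on WT day 1 and 3.56 (SE 0.418, adjusted p = 2.78e-06) on WT day 2, and 3.45 (adjusted p = 1.18e-05) and 3.81 (adjusted p = 2.25e-06) in KO. On day 5 it was 0.72 (adjusted p = 0.268) in WT and 1.26 (adjusted p = 0.064) in KO. Its counts were 12 to 19 fragments in the day 0 libraries and 99 to 234 on days 1 and 2.

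Il12b (mm10, chromosome 11, 44400063 to 44414010) encodes the p40 subunit shared by IL-12 and IL-23. Its WT levels were 0.158 and 0.151 on day 0 and 0.817 and 0.94, 0.136 and 0.202, and 0.117 and 0.10 on days 1, 2 and 5. KO levels were 0.0744 and 0.142, then 0.714 and 0.586, 0.0732 and 0.218, and 0.107 and 0.0783. The rise was seen on day 1 alone, by 2.5 (SE 0.372, adjusted p = 3.63e-05) in WT and 2.60 (SE 0.421, adjusted p = 8.52e-05) in KO. Il12a, which encodes the p35 subunit of IL-12, had changes of 0.22 (adjusted p = 0.325) and 0.31 (adjusted p = 0.171) on day 1 at a level of 3.14 to 5.38 in all libraries.

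Il27, the p28 subunit that pairs with Ebi3, stood at 0.537 and 0.407 in WT day 0 and at 1.63 and 0.888, 0.345 and 0.608, and 1.04 and 0.645 on days 1, 2 and 5. In KO it was 0.526 and 0.345, then 1.62 and 1.02, 0.53 and 0.962, and 0.459 and 0.656. Day 1 lay above day 0 in both genotypes without overlap, by 1.42 (SE 0.407, adjusted p = 0.00876) in WT and 1.57 (SE 0.429, adjusted p = 0.00688) in KO. Without WT_D0 replicate 2 or WT_D1 replicate 1 the WT adjusted p was 0.0902 or 0.136, and without KO_D0 replicate 2 or KO_D1 replicate 1 the KO value was 0.075 or 0.0859. Of 8 dendritic cell markers, 7 were called lower on day 1 in each genotype, with a median log2 change of -2.31 in WT and -2.25 in KO. The 1 called higher was Bst2, which interferon also induces. It rose from a mean of 17.1 to 87.8 in WT and from 16.1 to 65.7 in KO, and lifted the sum of the 8 from between 29.7 and 37.2 to between 84.1 and 98.7 in WT. Of 8 red pulp macrophage and monocyte markers 5 were called lower and 2 higher on WT day 1, and 4 and 2 on KO day 1. Ly6c2, among the higher, went from a mean of 13.0 to 76.0 in WT and from 12.1 to 45.1 in KO. Of 8 plasma cell markers 5 were called higher on day 1 and 8 on day 2 in each genotype. The part of cell numbers in the values of Il6, Il10, Il12b and Il27 was not tested.

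**Figure D3:**
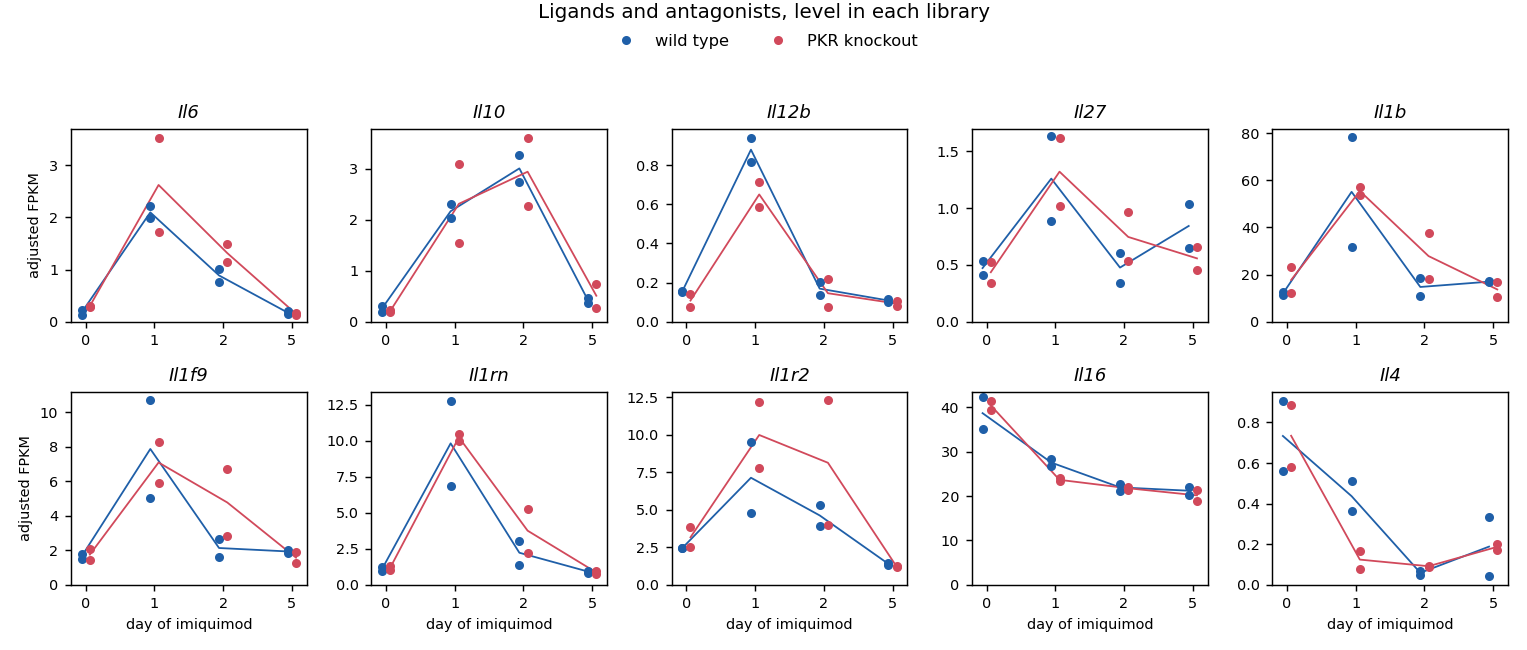
Adjusted FPKM (linear axes from 0) of 8 ligands, the antagonist Il1rn and the decoy receptor Il1r2 on days 0, 1, 2 and 5 of imiquimod, with 1 point per library, blue for wild type and red for PKR knockout, and lines through the group means. Il6, Il12b, Il1b, Il1f9 and Il1rn peak on day 1, Il10 stays high on day 2, and Il16 and Il4 lie below day 0 afterwards.

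Il1b and Il1f9, ligands of the IL-1 family, rose on day 1 together with Il1rn and Il1r2, which hold IL-1 back. Il1b (mm10, chromosome 2, 129364570 to 129371139), the inflammasome-processed cytokine, stood at 11.3 and 12.6 in WT day 0 and 78.3 and 31.9, 10.9 and 18.6, and 17.1 and 16.9 on days 1, 2 and 5. KO levels were 12.1 and 23.3, then 57.0 and 53.9, 18.0 and 37.7, and 10.4 and 17.0. Both day 1 libraries lay above both of day 0 in each genotype. The change was 2.20 (SE 0.55, adjusted p = 0.0111) in WT and 1.65 (SE 0.541, adjusted p = 0.038) in KO. For WT the adjusted p was 0.0646 or 0.0643 with WT_D0 replicate 1 or 2 left out and 0.0772 with WT_D1 replicate 1 left out, so each ended the call. The KO call ended without any 1 of 7 libraries, with values from 0.0542 (WT_D0 replicate 2) over 0.0568 (WT_D0 replicate 1), 0.0586 and 0.0596 (WT_D5 replicates 1 and 2), 0.104 (KO_D1 replicate 2) and 0.117 (KO_D1 replicate 1) to 0.189 (KO_D0 replicate 1).

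Il1rn encodes the IL-1 receptor antagonist, which occupies the receptor without signalling. It stood at 0.939 and 1.2 in WT day 0 and 12.8 and 6.86, 1.39 and 3.05, and 0.982 and 0.835 on days 1, 2 and 5. KO levels were 1.04 and 1.30, then 10.5 and 10, 2.22 and 5.29, and 0.774 and 0.92. The day 1 rise was 3.18 (SE 0.474, adjusted p = 0.000404) in WT and 3.14 (SE 0.479, adjusted p = 0.000487) in KO, and it was called under all 25 alternatives. On day 2 it was 1.06 (adjusted p = 0.0981) in WT and 1.69 (adjusted p = 0.0143) in KO, where it was lost without KO_D0 replicate 1 (0.0895), KO_D0 replicate 2 (0.0505) or KO_D2 replicate 2 (0.127). Of its 6 annotated transcripts, which share fragments, 5 stood higher in both day 1 libraries than in both day 0 libraries of each genotype, and the other was listed at 0 in most libraries.

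Il1f9, also called Il36g and known from psoriatic skin, stood at 1.76 and 1.51 in WT day 0 and 10.7 and 5.04, 1.62 and 2.63, and 2.01 and 1.84 on days 1, 2 and 5. KO levels were 1.42 and 2.07, then 8.29 and 5.88, 2.83 and 6.70, and 1.25 and 1.88. The day 1 rise was 2.27 (SE 0.471, adjusted p = 0.00308) in WT and 2.03 (SE 0.476, adjusted p = 0.00644) in KO, the latter 0.0573 without KO_D0 replicate 1. On KO day 2 it was 1.46 (adjusted p = 0.028), a call that ended without KO_D0 replicate 1 (0.151), KO_D0 replicate 2 (0.0541) or KO_D2 replicate 2 (0.245). The other IL-36 ligands, Il1f6 and Il1f8, had 0 counts in all libraries.

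Il1r2, a decoy receptor that binds IL-1 without signalling, stood at 2.43 and 2.45 in WT day 0 and 9.49 and 4.78, 3.93 and 5.31, and 1.34 and 1.43 on days 1, 2 and 5. KO levels were 2.5 and 3.82, then 12.2 and 7.78, 3.97 and 12.3, and 1.16 and 1.24. Day 1 lay above day 0 without overlap and day 5 below it. The day 1 change was 1.54 (SE 0.509, adjusted p = 0.0335) in WT and 1.66 (SE 0.509, adjusted p = 0.0259) in KO. For WT the call was lost without WT_D1 replicate 1 (0.204), WT_D0 replicate 1 (0.128) or 2 (0.154), WT_D5 replicate 1 (0.0522), WT_D5 replicate 2 (0.0508), KO_D5 replicate 1 (0.0502) or KO_D5 replicate 2 (0.0507), and the KO call without KO_D0 replicate 1 (0.147), KO_D0 replicate 2 (0.0582) or KO_D1 replicate 1 (0.142). On KO day 2 the value was 1.37 (adjusted p = 0.0498), a call that 19 of the 25 alternatives ended, with 0.517 without KO_D2 replicate 2. The day 5 values were -0.82 (adjusted p = 0.285) and -1.39 (adjusted p = 0.0793).

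Il18bp, which neutralises IL-18, was called higher in KO, by 0.76 (SE 0.189, adjusted p = 0.00361) on day 1 and 0.91 (SE 0.19, adjusted p = 0.000635) on day 2, beside 0.29 (adjusted p = 0.21) and 0.39 (adjusted p = 0.0963) in WT, at levels of 1.90 to 4.24. The difference between genotypes in the Il18bp change was 0.47 (adjusted p = 0.459) on day 1 and 0.52 (adjusted p = 1.0) on day 2. Il18 itself had 1 call, -0.80 (adjusted p = 0.00826) on KO day 2, which was 0.0502 without KO_D2 replicate 2.

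Il1b, Il1rn, Il1f9 and Il1r2 were uneven between the same libraries. WT_D1 replicate 1 held more of each than replicate 2, and KO_D2 replicate 2 more than the library labelled KO_D2 replicate 1. Neutrophil markers were uneven in the same libraries: the 8 genes summed to 1960 and 904 in WT day 1 and to 321 and 831 in KO day 2. They stood at 857 and 1480 in WT day 0, 241 and 405 in WT day 2, 1050 and 1220 in WT day 5, and in KO at 1040 and 959, 1800 and 1930, and 750 and 1110 on days 0, 1 and 5. In KO days 0 and 1 the order was the reverse. Il1b stood there at 12.1 and 23.3 and at 57.0 and 53.9, and Il1rn, Il1f9 and Il1r2 also ran against the marker sum. On WT day 0 Il1r2 was even (2.43 and 2.45) where the sums were not. On WT day 2 the sums lay below day 0, while Il1r2 (3.93 and 5.31) lay above it. On WT day 1, 1 of the 8 was called higher and 1 lower, and on KO day 1, 3 were higher. Called or not, 7 of the 8 had fitted changes above 0 on day 1 in each genotype, with medians of 0.61 in WT and 1.01 in KO. Between days 0 and 1, WT means went up for Cxcr2 (5.14 to 17.2), Csf3r (13.4 to 28.9), Retnlg (40.3 to 81.0) and Mmp9 (7.36 to 12.6). They also went up for Ly6g (2.61 to 3.61), S100a8 (347 to 416) and S100a9 (692 to 866), and down for Camp (57.7 to 7.96). The part of neutrophil RNA in the rise of Il1b, Il1rn, Il1f9 and Il1r2 was not tested.

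The 250 bases before the transcription start are shown for Il6, Il1f9 and Il1b, which rose on day 1, and for Il7r, which fell, to set the letters of promoters side by side for members that moved together or apart. They come from RefSeq (GRCm38.p6, the assembly of mm10), which gave a window for 66 of the 83 members but not for Il10 or Il12rb1, and are written 5′ to 3′ on the strand of the gene. For each member the RefSeq start nearest that of the counted transcript was taken, which lay 1395 bases away for Il1r2, 6347 for Il17f and 19892 for Il4i1. Capitals mark every match on either strand to 5 motifs: kappaB (GGGA, any 3 bases, TCC), C/EBP (TTGCNNAA), AP-1 (TGANTCA), STAT (TTCNNNGAA) and interferon response (GAAA, any 2 bases, GAAA).
Il6: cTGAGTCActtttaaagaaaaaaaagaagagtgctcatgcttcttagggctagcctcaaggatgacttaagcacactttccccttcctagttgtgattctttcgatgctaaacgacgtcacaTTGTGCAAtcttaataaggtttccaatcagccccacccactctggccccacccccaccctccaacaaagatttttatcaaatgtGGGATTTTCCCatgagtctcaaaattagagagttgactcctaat
Il1f9: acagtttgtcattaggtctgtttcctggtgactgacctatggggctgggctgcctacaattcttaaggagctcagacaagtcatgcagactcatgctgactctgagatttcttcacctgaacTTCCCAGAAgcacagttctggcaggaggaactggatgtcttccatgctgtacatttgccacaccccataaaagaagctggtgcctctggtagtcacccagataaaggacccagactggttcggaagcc
Il1b: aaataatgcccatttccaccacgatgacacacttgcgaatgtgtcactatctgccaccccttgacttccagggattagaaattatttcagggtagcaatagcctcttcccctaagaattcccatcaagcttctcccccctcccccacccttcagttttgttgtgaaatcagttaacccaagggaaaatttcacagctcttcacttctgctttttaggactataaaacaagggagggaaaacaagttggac
Il7r: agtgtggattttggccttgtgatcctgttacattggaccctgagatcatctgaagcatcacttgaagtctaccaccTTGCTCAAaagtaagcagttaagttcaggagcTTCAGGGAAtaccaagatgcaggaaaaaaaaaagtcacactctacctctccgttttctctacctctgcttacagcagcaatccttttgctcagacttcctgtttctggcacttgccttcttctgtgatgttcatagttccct
The windows lie at chr5:30012864-30013113 (Il6, plus strand), chr2:24186226-24186475 (Il1f9, plus strand), chr2:129371140-129371389 (Il1b, minus strand) and chr15:9529877-9530126 (Il7r, minus strand). The Il6 window held a kappaB match that reads on both strands (positions -44 to -34), a C/EBP match at -128 to -121 and an AP-1 match at -249 to -243, counting back from the start at -1. Il1f9 held 1 STAT match (-128 to -120), Il7r a C/EBP match (-174 to -167) and a STAT match (-142 to -134), and Il1b none in this window. The windows of Il1rn and Il12b, which also rose on day 1, held no match and are not shown. Over all 32851 promoter windows, 3.86% held a kappaB match, 9.56% C/EBP, 6.75% AP-1, 7.02% STAT and 2.98% the interferon response motif. Of the 11 members called higher on day 1 in both genotypes 8 had a window, and 1 of these held a kappaB match, 1 C/EBP, 2 AP-1, 2 STAT and 0 interferon response. Of the 14 called lower 12 had a window, with 0, 1, 3, 3 and 0 in the same order. The window of Il1r2, which held 1 of the 2 STAT matches of the higher members, lies downstream of the start of its counted transcript. A match describes letters in a window and not binding.

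Il16 and Il4, ligands made by lymphocytes, went the other way. Il16 stood at 42.3 and 35.1 on day 0 and at 26.7 and 28.4, 22.8 and 21.1, and 22.1 and 20.3 on days 1, 2 and 5 in WT. KO stood at 41.4 and 39.5, 24 and 23.3, 22.1 and 21.4, and 18.9 and 21.4 on the same days. All treated libraries lay below all day 0 libraries of their genotype. The change was -0.49 (SE 0.116, adjusted p = 0.00225) on WT day 1, -0.82 (adjusted p = 1.65e-05) on day 2 and -0.87 (adjusted p = 1.31e-05) on day 5, and -0.77 (adjusted p = 3.89e-05), -0.89 (adjusted p = 5.24e-06) and -1.0 (adjusted p = 1.75e-06) in KO. On the limma-trend scale, where the median of all genes on WT day 1 moves from -0.04 to 0.188, the WT day 1 value missed the threshold (adjusted p = 0.204).

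Il4, the cytokine of type 2 T helper cells and basophils, was scarce and fell in both genotypes. It stood at 0.907 and 0.56 on day 0 and at 0.509 and 0.364, 0.0485 and 0.0684, and 0.335 and 0.0403 on days 1, 2 and 5 in WT. KO stood at 0.888 and 0.581, 0.0791 and 0.168, 0.0941 and 0.0877, and 0.172 and 0.201 on the same days. All treated libraries lay below those of day 0 in each genotype. The change on day 2 was -3.49 (SE 0.766, adjusted p = 0.00114) in WT and -2.97 (SE 0.738, adjusted p = 0.0027) in KO. On day 5 it was -1.93 (adjusted p = 0.0198) and -1.97 (adjusted p = 0.0194). The WT day 5 call ended without WT_D0 replicate 1 (0.124) or WT_D5 replicate 2 (0.233), and the KO day 5 call without KO_D0 replicate 1 (0.132), KO_D5 replicate 1 (0.125) or KO_D5 replicate 2 (0.072). On day 1 it was -0.73 (adjusted p = 0.25) in WT and -2.51 (adjusted p = 0.00512) in KO, the latter 0.0515 without KO_D0 replicate 1 and 0.0591 without KO_D1 replicate 1. Markers of basophils, mast cells and eosinophils also moved: 9 of 10 were called lower on WT day 2 and 10 on KO day 2, and 0 and 3 on day 5, when 0 and 1 were higher. The part of these cells in the Il4 values was not tested.

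Il15, which sustains natural killer cells and memory T cells, had levels of 1.1 and 1.28 on day 0 and of 2.17 and 0.978, 0.523 and 0.608, and 0.717 and 0.972 on days 1, 2 and 5 in WT. KO stood at 1.23 and 1.3, 1.24 and 1.28, 0.791 and 1.03, and 0.805 and 1.32 on the same days. The change of -1.07 (SE 0.34, adjusted p = 0.0158) on WT day 2 was the only call among its 6 comparisons, and it ended without WT_D0 replicate 2 (0.0848), WT_D2 replicate 1 (0.0927) or WT_D2 replicate 2 (0.0599).

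Among scarce ligands, the alarmin Il33 was all but absent on day 0 and appeared on day 2. It stood at 0 and 0.0242 on day 0 and at 0.0509 and 0.0509, 0.473 and 0.439, and 0.139 and 0.0767 on days 1, 2 and 5 in WT. KO stood at 0.0162 and 0.0296, 0.0847 and 0.056, 0.403 and 0.271, and 0.0921 and 0.0958 on the same days. The groups of day 2 lay above all others in each genotype. Its change on day 2 was 4.92 (SE 0.6, adjusted p = 2.82e-06) in WT and 3.85 (SE 0.605, adjusted p = 4.16e-05) in KO, and with so few counts on day 0 these sizes depend on the prior count of the fit. On day 5 it was 2.85 (adjusted p = 0.00418) and 2.02 (adjusted p = 0.0306), the first 0.0511 without WT_D5 replicate 1 and the second between 0.0598 and 0.165 without any 1 KO library of day 0 or 5. Of 6 tested endothelial and stromal markers 3 rose in WT and 5 in KO on day 2, Col1a1 among them from 0.0443 to 0.816 in WT, and 1 fell in each genotype. The summed level of the 8 listed genes, most of it the endothelial gene Pecam1, went from between 27.1 and 27.5 on day 0 to between 19.0 and 20.3 on day 2 in WT, and from between 25.4 and 26.6 to between 18.5 and 19.0 in KO. The part of stromal cells in the Il33 values was not tested.

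Il1a, the alarmin of the IL-1 family, rose by 1.21 (SE 0.388, adjusted p = 0.0173) on WT day 1 and 2.08 (SE 0.466, adjusted p = 0.00161) on KO day 1, and by 2.49 (adjusted p = 0.000269) on KO day 5, at levels of 0.0509 to 0.509. The adjusted p in WT was 0.221 without WT_D0 replicate 2 and 0.0869 without WT_D1 replicate 2. Il21, the follicular helper cytokine, was called in KO, with 2.33 (adjusted p = 0.00609), 2.14 (adjusted p = 0.0114) and 2.13 (adjusted p = 0.0136), beside 0.96 (adjusted p = 0.088), -0.57 (adjusted p = 0.412) and 1.18 (adjusted p = 0.0502) in WT, at levels of at most 0.246. Without KO_D0 replicate 2 the KO adjusted p values were 0.0603, 0.0801 and 0.0918, without KO_D2 replicate 2 the day 2 value was 0.0762, and without KO_D5 replicate 2 the day 5 value was 0.107. The difference between genotypes in the Il21 change was 1.37 (adjusted p = 0.47) on day 1, 2.71 (adjusted p = 1.0) on day 2 and 0.95 (adjusted p = 0.802) on day 5.

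Il7r, Il9r, Il2rb and Il4ra, of the common gamma chain family, were called lower on every treated day in both genotypes. Il7r (mm10, chromosome 15, 9505788 to 9529835), needed for the survival of naive T cells, stood at 31.9 and 29.5 on day 0 and at 6.28 and 8.32, 5.99 and 6.49, and 4.88 and 4.25 on days 1, 2 and 5 in WT. KO stood at 35.7 and 46.8, 9.89 and 5.55, 2.28 and 7.79, and 5.58 and 6.27 on the same days. Every treated library lay below every day 0 library of its genotype. The change was -2.07 (SE 0.484, adjusted p = 0.00794) on day 1, -2.30 (SE 0.492, adjusted p = 0.00478) on day 2 and -2.75 (SE 0.503, adjusted p = 0.00252) on day 5 in WT. In KO it was -2.42 (adjusted p = 0.00409), -3.03 (adjusted p = 0.00105) and -2.80 (adjusted p = 0.00186). Without WT_D1 replicate 1 the WT day 1 value was 0.0591, and with the compared groups fitted alone the KO day 2 value was 0.105.

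Il9r, the receptor of IL-9, had its trough on day 2. It stood at 4.77 and 4.96 on day 0 and at 2.69 and 3.55, 0.504 and 0.929, and 1.94 and 1.83 on days 1, 2 and 5 in WT. KO stood at 5.37 and 4.15, 2.64 and 2.29, 0.553 and 0.521, and 2.02 and 2.28 on the same days. Day 2 libraries lay below all others of their genotype, and day 5 libraries between them and day 0. The change on day 2 was -2.74 (SE 0.219, adjusted p = 2.77e-08) in WT and -3.15 (SE 0.229, adjusted p = 7.44e-09) in KO, and on day 5 -1.36 (adjusted p = 4.79e-05) and -1.15 (adjusted p = 0.000194). On day 1 it was -0.64 (adjusted p = 0.0134) in WT, 0.0602 without WT_D0 replicate 2 and 0.122 without WT_D1 replicate 1, and -0.95 (adjusted p = 0.00103) in KO. The WT day 1 call also ended with limma-trend (0.178).

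The 3 chains of the IL-2 receptor behaved differently on day 1. Il2ra, the high-affinity chain of activated and regulatory T cells, stood at 1.33 and 1.77 on day 0 and at 1.55 and 1.89, 0.339 and 0.54, and 0.879 and 0.841 on days 1, 2 and 5 in WT. KO stood at 1.26 and 1.43, 1.76 and 1.44, 0.297 and 0.607, and 0.738 and 0.835 on the same days. Day 1 overlapped with day 0 in WT and lay just above it in KO, and day 2 lay below it in both. Its change was 0.15 (adjusted p = 0.651) on day 1 and -1.80 (SE 0.269, adjusted p = 3.22e-05) on day 2 in WT, and 0.25 (adjusted p = 0.443) and -1.56 (SE 0.274, adjusted p = 0.000137) in KO. The day 5 values were -0.85 (adjusted p = 0.0129) and -0.77 (adjusted p = 0.0226). These ended without WT_D0 replicate 2 (0.122), WT_D5 replicate 1 (0.0612) or WT_D5 replicate 2 (0.0734), and without KO_D0 replicate 2 (0.125), KO_D5 replicate 1 (0.154) or KO_D5 replicate 2 (0.0605).

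Il2rb, shared by the IL-2 and IL-15 receptors, stood at 22.4 and 15.8 on day 0 and at 14.3 and 12.3, 8.4 and 7.88, and 10.9 and 8.46 on days 1, 2 and 5 in WT. KO stood at 21.7 and 17.7, 12.4 and 11, 5.96 and 7.6, and 8.99 and 10.4 on the same days. All treated libraries lay below day 0. The change was -0.52 (adjusted p = 0.0226) on day 1, -1.23 (adjusted p = 3.15e-05) on day 2 and -0.98 (adjusted p = 0.000361) on day 5 in WT, and -0.75 (adjusted p = 0.00249), -1.54 (adjusted p = 2.74e-06) and -1.02 (adjusted p = 0.000186) in KO. The WT day 1 value was 0.261 without WT_D0 replicate 1, 0.159 without WT_D1 replicate 2 and 0.333 with limma-trend.

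Il2rg stood at 74.4 and 63 on day 0 and at 69.6 and 72, 38.5 and 37.1, and 41.8 and 35.3 on days 1, 2 and 5 in WT. KO stood at 70.0 and 72.2, 59.8 and 58.6, 31.5 and 38.7, and 36.6 and 40.2 on the same days. Day 1 overlapped with day 0 in WT and lay below it in KO, with changes of 0.04 (adjusted p = 0.792) and -0.26 (adjusted p = 0.0958), neither called. It fell on day 2, with changes of -0.86 (SE 0.124, adjusted p = 1.98e-05) and -1.02 (SE 0.125, adjusted p = 2.55e-06). On day 5 its change was -0.83 (adjusted p = 4.01e-05) and -0.89 (adjusted p = 1.51e-05).

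Il4ra, the signalling chain for IL-4 and IL-13, stood at 31.4 and 24.5 on day 0 and at 19.3 and 21.2, 14 and 13.5, and 15.1 and 12.5 on days 1, 2 and 5 in WT. KO stood at 29.4 and 22.9, 19.7 and 17.5, 10.9 and 12.8, and 11.6 and 13.7 on the same days. Day 2 and day 5 libraries lay below those of day 0 and day 1. The change was -0.47 (adjusted p = 0.0176), -1.03 (adjusted p = 2.59e-05) and -1.01 (adjusted p = 4.22e-05) in WT and -0.49 (adjusted p = 0.0133), -1.14 (adjusted p = 6.81e-06) and -1.04 (adjusted p = 2.32e-05) in KO. The WT day 1 call ended without WT_D0 replicate 1 (0.178) or WT_D1 replicate 1 (0.0987), the KO day 1 call without KO_D0 replicate 1 (0.156) or KO_D1 replicate 2 (0.0775), and both with limma-trend (0.369 and 0.0824).

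T cell markers fell in the same libraries. The 10 genes summed to 250 and 216 in WT day 0 and 154 and 172, 49.5 and 54.2, and 101 and 93 on days 1, 2 and 5, and to 230 and 235, 130 and 115, 31.3 and 62.2, and 92.8 and 119 in KO. Of the 10 genes 5 were called lower on WT day 1 and all 10 on days 2 and 5, and 9, 10 and 9 in KO. The median log2 changes were -0.60, -2.41 and -1.32 in WT and -1.11, -2.56 and -1.14 in KO. Of 8 B cell markers 3, 4 and 8 were lower in WT and 6, 7 and 8 in KO. Of 6 NK cell markers 3 were lower and 1 higher on WT day 1, when their sum was 78.9 and 63.4 beside 66.8 and 51.2 on day 0. On days 2 and 5, 4 and 6 were lower in WT, and in KO 4, 5 and 5 on days 1, 2 and 5. Their median changes on day 2 were -1.24 and -1.49. Plasma cell markers moved the other way: all 8 were called higher on day 2 in each genotype, with median changes of 3.02 and 3.17. Their sum went from 144 and 116 on day 0 to 1220 and 921 on day 2 in WT and from 115 and 134 to 1360 and 788 in KO. Erythroid precursor markers, 8 genes, were all called higher on day 5 in both genotypes. The part of cell composition in the receptor falls was not tested.

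Il15ra, which presents IL-15 to neighbouring cells, rose on day 1. It stood at 1.47 and 1.04 on day 0 and at 2.82 and 2.88, 1.83 and 1.48, and 1.53 and 1.85 on days 1, 2 and 5 in WT. KO stood at 1.31 and 1.75, 2.53 and 2.42, 1.75 and 1.9, and 1.49 and 1.24 on the same days. Day 1 lay above all other days without overlap in each genotype. The day 1 change was 1.19 (SE 0.216, adjusted p = 0.000253) in WT and 0.70 (SE 0.22, adjusted p = 0.0159) in KO, the latter ended without KO_D0 replicate 1 (0.162), KO_D1 replicate 1 (0.0789) or KO_D1 replicate 2 (0.0656).

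**Figure D4:**
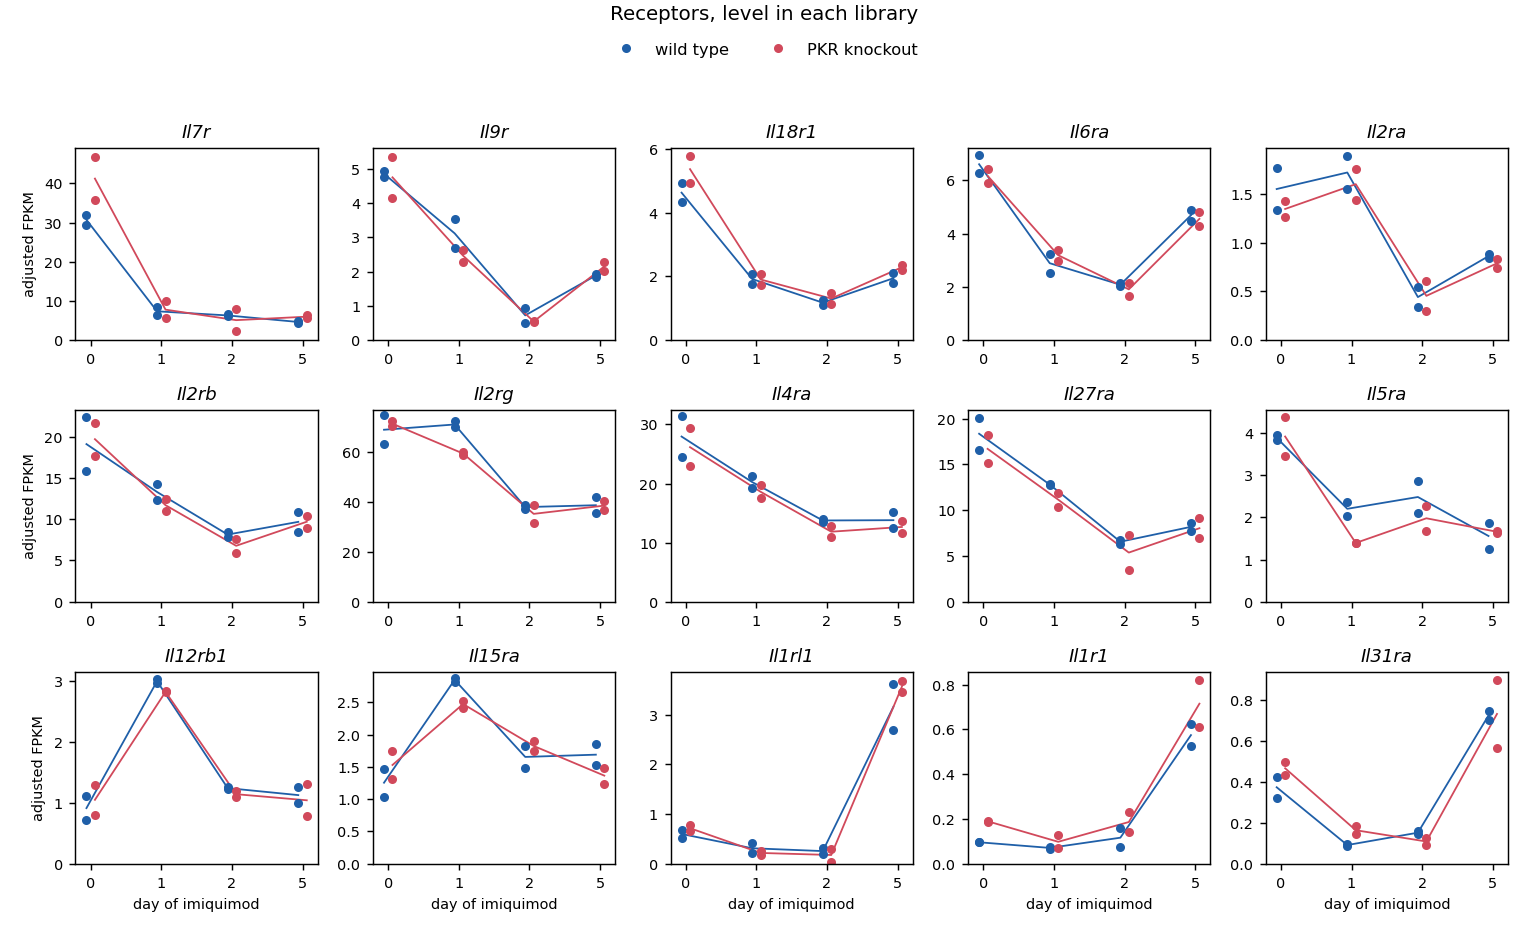
Adjusted FPKM (linear axes from 0) of 15 receptor genes on days 0, 1, 2 and 5 of imiquimod, with 1 point per library, blue for wild type and red for PKR knockout, and lines through the group means. Il7r, Il9r, Il18r1 and Il6ra lie below day 0 on all treated days, Il12rb1 and Il15ra peak on day 1, and Il1rl1 and Il1r1 peak on day 5.

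The receptors for IL-6 moved opposite to the ligand. Il6ra, the ligand-binding chain, stood at 6.27 and 6.95 on day 0 and at 3.25 and 2.52, 2.14 and 2.01, and 4.89 and 4.49 on days 1, 2 and 5 in WT. KO stood at 6.45 and 5.9, 2.97 and 3.4, 1.66 and 2.14, and 4.29 and 4.82 on the same days. Days 1 and 2 lay below day 0 and day 5 between. The change was -1.2 (SE 0.141, adjusted p = 3.1e-06) on day 1, -1.67 (SE 0.145, adjusted p = 4.32e-08) on day 2 and -0.49 (adjusted p = 0.00913) on day 5 in WT, and -0.96 (adjusted p = 3.32e-05), -1.70 (adjusted p = 3.29e-08) and -0.44 (adjusted p = 0.0166) in KO. The day 5 calls ended without WT_D0 replicate 2 (0.0704) or WT_D5 replicate 2 (0.0686) and without KO_D0 replicate 1 (0.109) or KO_D5 replicate 1 (0.167). Il6st, which encodes gp130, fell on all days, with changes of -0.62 (adjusted p = 0.000394), -0.85 (adjusted p = 1.51e-05) and -0.92 (adjusted p = 9.23e-06) in WT and -0.66 (adjusted p = 0.000251), -0.74 (adjusted p = 5.74e-05) and -0.87 (adjusted p = 1.35e-05) in KO, calls that all 25 alternatives kept.

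Il27ra, which pairs with gp130 to bind IL-27, stood at 20.1 and 16.6 on day 0 and at 12.7 and 12.9, 6.35 and 6.76, and 8.59 and 7.77 on days 1, 2 and 5 in WT. KO stood at 18.2 and 15.2, 11.9 and 10.4, 3.47 and 7.27, and 6.96 and 9.1 on the same days. Day 1 lay below day 0 without a call, at -0.52 (adjusted p = 0.107) in WT and -0.59 (adjusted p = 0.0814) in KO, and day 2 was lower, with changes of -1.48 (SE 0.257, adjusted p = 0.000524) and -1.63 (SE 0.261, adjusted p = 0.000244). On day 5 the change was -1.17 (adjusted p = 0.0033) in WT and -1.06 (adjusted p = 0.00506) in KO, 0.0607 without KO_D5 replicate 1. Il31ra, the IL-31 receptor, fell and then rose in WT: -2.05 (adjusted p = 3.5e-05) on day 1, -1.31 (adjusted p = 0.00187) on day 2 and 0.95 (adjusted p = 0.00805) on day 5, the last 0.0683 without WT_D0 replicate 1 and 0.0648 without WT_D5 replicate 2. In KO it was -1.50 (adjusted p = 0.000541), -2.10 (adjusted p = 3.62e-05) and 0.65 (adjusted p = 0.0552).

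The 2 chains of the IL-12 receptor parted. Il12rb1, which also serves IL-23, stood at 1.11 and 0.713 on day 0 and at 3.03 and 2.96, 1.25 and 1.23, and 1.25 and 1.0 on days 1, 2 and 5 in WT. KO stood at 1.29 and 0.805, 2.81 and 2.83, 1.09 and 1.19, and 0.78 and 1.3 on the same days. Day 1 lay above all other days in each genotype. The rise was 1.73 (SE 0.248, adjusted p = 2.56e-05) in WT and 1.42 (SE 0.25, adjusted p = 0.000188) in KO, under all 25 alternatives. Il12rb2, specific to IL-12, stood at 0.959 and 1.29 on day 0 and at 0.81 and 1.05, 0.431 and 0.38, and 0.82 and 0.57 on days 1, 2 and 5 in WT. KO stood at 1.41 and 1.22, 0.942 and 0.835, 0.342 and 0.425, and 0.817 and 0.67 on the same days. Its day 1 change was -0.28 (adjusted p = 0.335) and -0.56 (adjusted p = 0.0626), and on day 2 it fell, with changes of -1.49 (SE 0.254, adjusted p = 0.000113) and -1.77 (SE 0.259, adjusted p = 1.91e-05). On day 5 the values were -0.70 (adjusted p = 0.0264) and -0.82 (adjusted p = 0.0106), which ended without WT_D0 replicate 2 (0.237) or WT_D5 replicate 2 (0.234) and without KO_D0 replicate 1 (0.0758) or KO_D5 replicate 2 (0.0944).

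A run of 6 IL-1 receptor family genes lies on chromosome 1 (mm10, 40084698 to 40551705, 467 kb) in the order Il1r2, Il1r1, Il1rl2, Il1rl1, Il18r1 and Il18rap, and its members peaked on different days. Il1r2 peaked on day 1 as given above. Il18r1, the ligand-binding chain for IL-18, stood at 4.93 and 4.34 on day 0 and at 2.08 and 1.75, 1.1 and 1.24, and 2.1 and 1.78 on days 1, 2 and 5 in WT. KO stood at 4.95 and 5.8, 2.07 and 1.73, 1.12 and 1.48, and 2.2 and 2.37 on the same days. All treated libraries lay below day 0. The change was -1.27 (SE 0.161, adjusted p = 6.54e-06), -1.98 (adjusted p = 3.91e-08) and -1.25 (adjusted p = 9.4e-06) in WT and -1.50 (SE 0.164, adjusted p = 1.25e-06), -2.05 (adjusted p = 2.12e-08) and -1.23 (adjusted p = 8e-06) in KO, kept under all 25 alternatives.

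Its partner Il18rap stood at 3.9 and 4.17 on day 0 and at 3.09 and 2.01, 1.55 and 1.46, and 3.05 and 2.72 on days 1, 2 and 5 in WT. KO stood at 4.48 and 4.75, 3.68 and 2.86, 1.64 and 2.17, and 2.32 and 2.53 on the same days. Day 2 lay lowest in both genotypes, with changes of -1.42 (SE 0.186, adjusted p = 6.36e-06) and -1.28 (SE 0.185, adjusted p = 1.67e-05). The other values were -0.67 (adjusted p = 0.00562) and -0.48 (adjusted p = 0.0394) in WT and -0.50 (adjusted p = 0.0325) and -0.93 (adjusted p = 0.000461) in KO. The WT day 1 call ended without WT_D1 replicate 2 (0.131), and the KO day 1 call without KO_D0 replicate 1 (0.0639), KO_D0 replicate 2 (0.133) or KO_D1 replicate 2 (0.209). Both day 1 calls also ended with limma-trend (0.082 in WT and 0.105 in KO). The WT day 5 call ended without any 1 of 9 libraries, with values from 0.0564 (KO_D5 replicate 2) to 0.18 (WT_D5 replicate 2), the others being KO_D0 replicate 1, KO_D5 replicate 1 and both replicates of WT_D0, both of WT_D2 and WT_D5 replicate 1.

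Il1rl1, the IL-33 receptor ST2 of type 2 lymphocytes, mast cells and regulatory T cells, was high on day 5. It stood at 0.513 and 0.683 on day 0 and at 0.415 and 0.205, 0.194 and 0.312, and 2.7 and 3.62 on days 1, 2 and 5 in WT. KO stood at 0.651 and 0.777, 0.181 and 0.25, 0.043 and 0.305, and 3.68 and 3.45 on the same days. The day 5 libraries lay above all others without overlap. The change on day 5 was 2.39 (SE 0.485, adjusted p = 0.0031) in WT and 2.32 (SE 0.485, adjusted p = 0.00306) in KO, under all 25 alternatives. All 5 annotated transcripts of the gene, which share fragments, were higher on day 5 than on the other days in both genotypes. On days 1 and 2 the values were -0.97 (adjusted p = 0.148) and -1.22 (adjusted p = 0.0955) in WT and -1.72 (adjusted p = 0.0302) and -2.01 (adjusted p = 0.0161) in KO. The KO day 1 call ended without KO_D0 replicate 1 (0.0638), KO_D0 replicate 2 (0.116), KO_D1 replicate 1 (0.161) or KO_D1 replicate 2 (0.0869), and the KO day 2 call without KO_D0 replicate 2 (0.0684).

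Il1r1, the signalling receptor of IL-1, stood at 0.0954 and 0.0956 on day 0 and at 0.0737 and 0.067, 0.0729 and 0.159, and 0.624 and 0.525 on days 1, 2 and 5 in WT. KO stood at 0.192 and 0.187, 0.0693 and 0.126, 0.141 and 0.231, and 0.819 and 0.611 on the same days. Day 5 again lay above all other days. Its rise was 2.58 (SE 0.344, adjusted p = 1.19e-05) in WT and 1.91 (SE 0.324, adjusted p = 0.00011) in KO, under all 25 alternatives. Il1rl2, the IL-36 receptor, fell on day 2, with changes of -1.30 (adjusted p = 0.00237) and -0.97 (adjusted p = 0.0177) and had day 5 values of 0.45 (adjusted p = 0.207) and 0.97 (adjusted p = 0.00974). The adjusted p of the day 2 calls was 0.0546 without WT_D2 replicate 2, 0.11 without KO_D0 replicate 1 and 0.147 without KO_D2 replicate 1, and the KO day 5 call 0.0768 without KO_D0 replicate 2. Markers of basophils, mast cells and eosinophils summed to 16.3 and 32.0 in WT day 0 and to 18.8 and 22.2 on day 5, and to 20.7 and 17.5 and to 25.7 and 22.9 in KO, so on day 5 the sum lay within the day 0 range in WT and above it in KO. Prg2 was its largest part, with WT means of 13.6 on day 0 and 8.24 on day 5. Over the same days Mcpt8 went from 1.93 to 3.07, Prss34 from 1.86 to 2.8 and Cpa3 from 0.901 to 1.33. Of the 10 genes 5 had fitted changes above 0 and 5 below in WT, with 0 called. In KO 1 was called higher and 3 lower. Of 6 tested endothelial and stromal markers 3 were higher on day 5 in WT and 4 in KO, with median changes of 1.92 and 1.87. Of 8 red pulp macrophage and monocyte markers 4 were higher and 1 lower on day 5 in WT and 3 and 1 in KO, and their sum went from between 78.4 and 80.0 to between 116 and 130 in WT and from between 76.5 and 79.4 to between 114 and 124 in KO. The part of these cell types in the Il1r1 and Il1rl1 values was not tested.

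**Figure D5:**
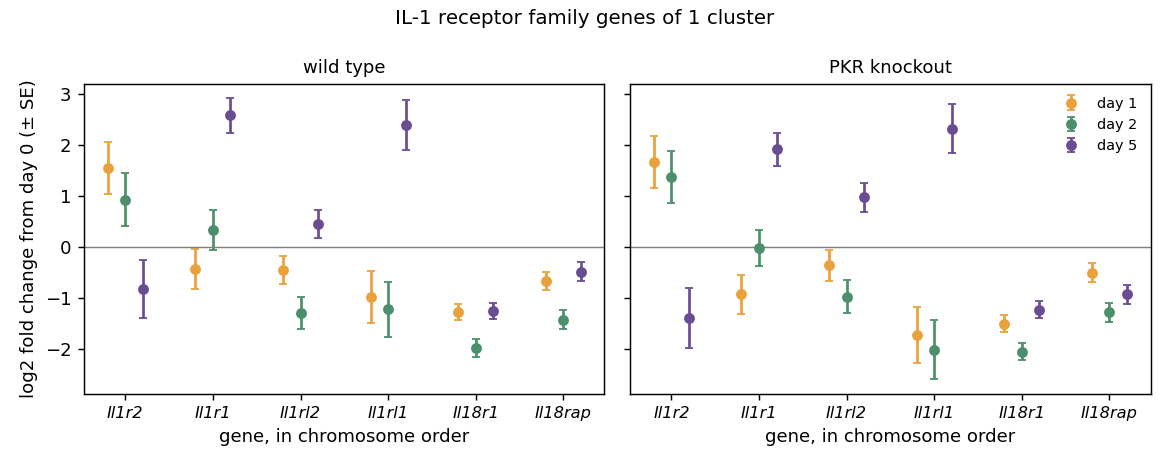
Log2 fold change from day 0 (points) with its standard error (bars) for 6 IL-1 receptor family genes in their order on chromosome 1, on days 1, 2 and 5 of imiquimod in wild type and PKR knockout. Il1r2 is highest on day 1, Il1r1 and Il1rl1 stand above 0 on day 5, and Il18r1 lies below 0 on each day.

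Of the remaining receptors, Il17rb, which binds IL-25, stood at 0.801 and 0.586 on day 0 and at 0.195 and 0.236, 0.137 and 0.0804, and 0.148 and 0.171 on days 1, 2 and 5 in WT. KO stood at 0.497 and 0.381, 0.223 and 0.206, 0.0221 and 0.124, and 0.152 and 0.177 on the same days. All treated libraries lay below day 0. The change was -1.67 (SE 0.355, adjusted p = 0.001), -2.70 (adjusted p = 4.27e-05) and -2.11 (adjusted p = 0.000368) in WT and -1.04 (adjusted p = 0.0378), -2.55 (adjusted p = 0.000203) and -1.42 (adjusted p = 0.00941) in KO. The KO day 1 call ended without KO_D0 replicate 1 (0.197), KO_D0 replicate 2 (0.0583), KO_D1 replicate 1 (0.112) or KO_D1 replicate 2 (0.137), and the KO day 5 call without KO_D0 replicate 1 (0.0775) or KO_D5 replicate 1 (0.085). The counted transcript of Il17rb is annotated as subject to nonsense-mediated decay and not as protein coding.

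Il5ra, of eosinophils and B-1 cells, stood at 3.83 and 3.95 on day 0 and at 2.04 and 2.37, 2.87 and 2.1, and 1.87 and 1.25 on days 1, 2 and 5 in WT. KO stood at 3.45 and 4.39, 1.39 and 1.4, 2.28 and 1.68, and 1.63 and 1.69 on the same days. All treated libraries lay below day 0. The change was -0.82 (SE 0.194, adjusted p = 0.00243), -0.65 (adjusted p = 0.0113) and -1.32 (adjusted p = 5.38e-05) in WT and -1.49 (SE 0.203, adjusted p = 1.43e-05), -0.98 (adjusted p = 0.00053) and -1.23 (adjusted p = 8.42e-05) in KO. The WT day 2 value was 0.0506 without WT_D0 replicate 2 and 0.177 without WT_D2 replicate 2. The WT day 1 call ended with limma-trend (0.0664).

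Il20rb, a chain of the receptors for IL-19, IL-20 and IL-24, was among the few receptors to rise on day 2. It stood at 0.259 and 0.265 on day 0 and at 0.394 and 0.329, 0.715 and 0.385, and 0.327 and 0.568 on days 1, 2 and 5 in WT. KO stood at 0.20 and 0.324, 0.446 and 0.335, 0.622 and 0.446, and 0.317 and 0.349 on the same days. Day 2 lay above day 0 without overlap. The change was 1.04 (SE 0.354, adjusted p = 0.0226) in WT and 1.04 (SE 0.366, adjusted p = 0.0249) in KO. These calls ended without WT_D2 replicate 1 (0.312), WT_D0 replicate 1 (0.0721) or 2 (0.0822), and without KO_D0 replicate 1 (0.205) or KO_D2 replicate 1 (0.22).

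Of the remaining receptors Il10ra, the IL-10 binding chain, fell while its ligand rose, by 0.51 (adjusted p = 0.00188) on WT day 1, 0.57 (adjusted p = 0.000783) on KO day 1 and 0.59 (adjusted p = 0.000408) on KO day 2, at levels of 21 to 34.9. The WT day 1 value was 0.162 with limma on log2 FPKM. Its WT day 2 value was -0.30 (adjusted p = 0.0418) and ended without any library of WT days 0, 1 or 2 or without KO_D1 replicate 1 or either KO_D5 library, up to 0.253 without WT_D2 replicate 2. Il17ra, common to receptors of the IL-17 family, ranged from 11 to 17.5 and was lower on KO day 2 (-0.55, adjusted p = 0.000792), WT day 2 (-0.42, adjusted p = 0.00717, and 0.103 without WT_D2 replicate 2) and WT day 1 (-0.36, adjusted p = 0.0168, and 0.0805 and 0.171 without WT_D0 replicate 1 and WT_D1 replicate 2, and 0.569 with limma). Il17rd was lower on day 1 in both genotypes (-2.01, adjusted p = 0.00541, and -2.57, adjusted p = 0.00185), at levels of at most 0.0524, and the WT call ended without WT_D0 replicate 2 (0.141) or WT_D1 replicate 2 (0.0611). That WT call also ended with limma-trend (0.118). Il1rap, the accessory chain of IL-1 family receptors, ranged from 1.16 to 2.61 and was lower on KO day 5 (-0.91, adjusted p = 0.000349). It was also lower on WT day 2 (-0.51, adjusted p = 0.0207), a value that went to between 0.0527 and 0.133 without any 1 WT library of day 0 or 2.

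Il3ra, the IL-3 receptor, was higher on day 2 in WT (0.76, adjusted p = 0.00909, and 0.138 without WT_D0 replicate 2) and in KO (0.81, adjusted p = 0.0072, and 0.0685 without KO_D2 replicate 2). It was also called higher in KO on day 1 (0.71, adjusted p = 0.0181, and 0.0621 to 0.0854 without any 1 KO library of day 0 or 1) and on day 5 (0.63, adjusted p = 0.034, and 0.0543 to 0.124 without KO_D1 replicate 2 or any 1 KO library of day 0 or 5). Il23r was higher on WT day 1 (1.29, adjusted p = 0.0415), a call that 16 of the 25 alternatives ended, with 0.414 without WT_D1 replicate 2. Il21r, next to Il2rg in level, was called on KO day 1 alone (0.50, adjusted p = 0.0386), a call that 9 alternatives ended, with 0.324 without KO_D1 replicate 1. Il11ra1 was called on WT day 1 (-0.96, adjusted p = 0.0114, and 0.0516 and 0.123 without WT_D0 replicate 1 and WT_D1 replicate 2), and Il10rb on KO days 1 (-0.34, adjusted p = 0.0344, and 0.181 and 0.184 without KO_D0 and KO_D1 replicate 2) and 2 (-0.35, adjusted p = 0.026, and 0.172 and 0.291 without KO_D0 and KO_D2 replicate 2). With limma-trend the Il11ra1 call (0.0818) and the KO day 1 call of Il10rb (0.203) also ended. Il13ra1, the ligand Il2, Il12a and the antisense RNA Il1bos had no call in the 6 comparisons with day 0. The enzyme gene Il4i1 was lower on WT day 2 (-0.92, adjusted p = 0.00699, and 0.0572 and 0.0775 without WT_D0 replicate 1 and WT_D2 replicate 2). It was also lower on WT day 5 (-0.80, adjusted p = 0.0173, and 0.128 and 0.127 without WT_D0 replicate 1 and WT_D5 replicate 2). On KO day 2 its change was -0.81 (adjusted p = 0.0143), with 0.168, 0.0505 and 0.0675 without KO_D0 replicate 1, KO_D2 replicate 1 and KO_D2 replicate 2. On WT day 1 it was -0.65 (adjusted p = 0.0397), with 0.0532 to 0.196 without WT_D0 replicate 1, either WT_D1 library or KO_D2 replicate 2, and 0.226 with limma.

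The knockout was then compared with wild type on each day, in the mean over days and in the change from day 0. With edgeR 0 of the 51 members were called in any of these 8 comparisons, and DESeq2 and limma-trend also called 0. Eif2ak2, the gene of the knockout, was itself not called by edgeR in any of them. Its adjusted p was 0.801, 0.11, 0.994 and 0.619 on days 0, 1, 2 and 5 and 0.265 in the mean of days. Of all genes tested 0.0160%, 0.176%, 0% and 0.00532% were called on days 0, 1, 2 and 5, 0.160%, 0% and 0% in the changes to days 1, 2 and 5, and 0.0266% in the mean of days. The lower calls among them made up 0.0479% on day 1 and 0.0319% in the change to day 1. At an unadjusted p under 0.05 there were 3 members on each day, 2, 1 and 2 in the changes and 3 in the mean. Of all 18789 genes tested, 1105, 1751, 868 and 1229 were under it on those days. In the changes 2489, 752 and 1477 genes were, and in the mean 1045. On day 1 the difference (KO minus WT) was 0.32 (SE 0.274, adjusted p = 0.763) for Il6, 0.08 (SE 0.334, adjusted p = 0.968) for Il10, -0.44 (SE 0.323, adjusted p = 0.713) for Il12b, 0.01 (SE 0.521, adjusted p = 1.0) for Il1b and 0.08 (SE 0.473, adjusted p = 0.978) for Il7r. The median standard error over the 51 members was 0.267 to 0.293 on the single days, which limits what 2 libraries a group can show, and a missing call does not show that the genotypes were alike.

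Il5ra had the smallest p on day 1. Both KO libraries of that day (1.39 and 1.40) lay below both WT libraries (2.04 and 2.37), a difference of -0.67 (SE 0.202, adjusted p = 0.211). It was called when no filter on low counts was used (-0.71, adjusted p = 0.00752) and when the compared groups were fitted alone (-0.64, adjusted p = 0.0468), and not otherwise. Il1r1 had the smallest p in the mean of days, with a difference of 0.61 (SE 0.182, adjusted p = 0.648), and Il21 on day 0, with -1.97 (adjusted p = 0.787).

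Genes that act downstream of the receptors were counted from lists chosen for their function. Of all genes tested 44.6%, 45.2% and 39.4% were called in either direction on days 1, 2 and 5 in WT and 41.6%, 49.3% and 44.5% in KO. Of 11 JAK and STAT genes 4 rose and 5 fell on WT day 1, 1 rose and 7 fell on day 2, and 0 rose and 6 fell on day 5, and in KO 4 and 4, 1 and 7, and 1 and 6. The share called was 54.5% to 81.8% in the 6 comparisons. Stat2, a factor of interferon signalling, rose by 0.90 (SE 0.128, adjusted p = 2.49e-05) on WT day 1 and by 0.92 (SE 0.129, adjusted p = 2.02e-05) on KO day 1. On day 2 Jak2 fell by 1.31 in WT (adjusted p = 2.13e-08) and by 1.57 in KO (adjusted p = 2.01e-09), while Jak3, the kinase bound to the common gamma chain, rose by 0.91 (adjusted p = 0.000461) and 1.16 (adjusted p = 4.55e-05). Stat4, used by the IL-12 receptor, fell by 1.16 (adjusted p = 2.65e-06) in WT and 1.45 (adjusted p = 1.32e-07) in KO on day 5.

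Of 11 feedback inhibitors 2 rose and 4 fell on day 1 and 2 rose and 5 fell on day 2 in each genotype, 54.5% and 63.6% of the list. The risers were Socs2 and Socs3, which block JAK signalling. Socs3, itself induced by IL-6 and IL-10, went from a mean of 7.98 to 33.4 on WT day 1 (2.07, SE 0.318, adjusted p = 0.000476) and from 7.88 to 34.2 on KO day 1 (2.12, SE 0.32, adjusted p = 0.000434). Its day 2 change was 1.21 (SE 0.313, adjusted p = 0.00964) in WT, which was 0.0801 without WT_D0 replicate 2, and 1.17 (SE 0.314, adjusted p = 0.0106) in KO, which was 0.067 without KO_D0 replicate 2 and 0.0594 without KO_D2 replicate 2. Socs2 rose on day 1 by 2.56 (SE 0.191, adjusted p = 2.17e-08) and 1.52 (SE 0.193, adjusted p = 6.88e-06). On day 5, 0 rose and 3 fell in WT, with Socs1 lower by 1.21 (adjusted p = 0.00182), and 1 rose and 6 fell in KO.

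Of 15 genes of IL-1 and IL-18 signalling, 1 rose and 3 fell on WT day 1, 1 rose and 4 fell on day 2, and 1 rose and 1 fell on day 5, and in KO 3 and 2, 2 and 6, and 1 and 2. The adaptor Myd88, shared with Toll-like receptors, rose on day 1 by 0.68 (SE 0.134, adjusted p = 0.000513) in WT and 0.69 (SE 0.135, adjusted p = 0.00053) in KO. Casp1, which cleaves pro-IL-1beta, fell by 0.62 (adjusted p = 0.00192) and 1.11 (adjusted p = 5.51e-06) on day 2. Of 11 tested partner subunits and related cytokines, 2 rose and 3 fell on WT day 1, 3 rose and 3 fell on day 2, and 2 rose and 1 fell on day 5, and in KO 2 and 1, 3 and 5, and 3 and 1. Lif, a gp130 cytokine, rose on day 1 from a mean of 0.0251 to 0.313 in WT (3.63, adjusted p = 5.78e-05) and from 0.0393 to 0.225 in KO (2.5, adjusted p = 0.00177), while its receptor Lifr fell by 1.59 (adjusted p = 3.45e-07) and 1.39 (adjusted p = 1.3e-06). Of 8 IL-17 signalling genes 0 rose and 2, 2 and 4 fell on days 1, 2 and 5 in WT, and in KO 1 rose and 1 fell on day 1 and 0 rose and 2 fell on days 2 and 5. The share called lay below that of all genes in 5 of the 6 comparisons for IL-17 signalling, with 25% in each of the 5 and 50% on WT day 5. For IL-1 and IL-18 signalling it also did so in 5, with 13.3% to 33.3%, and was 53.3% on KO day 2.

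The other 32 members had at most 11 counts in any library and at most 65 in total and were not tested. They were 21 ligands, 7 receptors and 4 antagonists or decoys. The 12 with 0 counts in every library were Il17b, Il1f10, Il1f6, Il1f8, Il1rapl1, Il1rapl2, Il20, Il24, Il25, Il3, Il31 and Il9. For these a count of 0 allows up to 3 counts, or 0.0446 to 0.0856 FPM (fragments scaled to library size) in a single library and 0.00412 FPM over all 727656600 fragments, which covers counting error only. So Il9r, Il17rb and Il31ra were measured while the ligand genes Il9, Il25 and Il31 had no count. Il20ra had 14 counts in WT day 5 and 17 in KO day 5 of its total of 43, and Il34, a ligand of the CSF-1 receptor, 11 and 16 of 46 on day 2.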

How the data were processed

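RNA of spleen cells was sequenced as rRNA-depleted stranded libraries. Per the file headers, the deposited tables give for each transcript a fragment count, a signal scaled to library size (FPM) and an FPKM. The submitters' processing notes name bcl2fastq 2.17.1.14, Trimmomatic, HISAT2, TopHat and mm10, without roles, and no source used here gives the counter or annotation. Deposited counts were used unchanged, with 1 transcript per symbol, the one with the highest mean count, so reads shared between transcripts may be counted in several of them. By GENCODE M21 the kept transcript was protein coding for 77 members and not for 6, Il17rb and Il10rb among the latter. With protein-coding transcripts used instead, no call of these 2 genes ended. The members and lists were chosen with earlier results of these data known. Counts were tested with edgeR 4.0.16 (R 4.3.3): TMM scaling, filterByExpr, a robust quasi-likelihood fit of all 16 libraries with 1 mean per group, and Benjamini-Hochberg adjustment over 18789 genes, checked on simulated data. Adjusted FPKM values were computed from the deposited counts. DESeq2 1.42.0, limma 3.58.1 (log2 of the deposited FPKM plus 0.1) and other scalings, filters, transcripts, fits and single libraries left out served as 25 alternatives. Every library's values are given for members called with a log2 change of 1 or more and a mean of 0.5 or more in the higher group; of each pathway list up to 3 genes per comparison with the largest called change were eligible. Each library pooled 2 mice, so 2 libraries a group measure the spread between pools.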

Additional observations from a re-analysis of the deposited data

How the results depend on the processing

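Under 25 alternatives, 347 of 350 counts of members called stayed within 1.5 times the reported count. The count on KO day 1 was 21 instead of 32 without KO_D0 replicate 1, and the count for knockout against wild type on day 1 was 1 instead of 0 with no filter on low counts and 1 with the compared groups fitted alone, Il5ra in both. Leaving out single libraries gave 22 to 31 members called on WT day 1, 21 to 32 on day 2 and 15 to 24 on day 5, and 21 to 37, 27 to 35 and 18 to 27 in KO, and 0 in all 8 comparisons of the genotypes. Of 168 calls of members in the 6 comparisons with day 0, 98 were kept under all 25 alternatives, 70 were ended by at least 1, and 66 by leaving out a library. None of the 7658 values of single genes changed direction past the threshold: 7265 stayed on their side of it, 330 lost the call and 63 gained it. The cause was not tested. With a replicate block the counts were 29, 28 and 21 in WT and 32, 33 and 25 in KO, and 0 between genotypes. The labels do not say that replicate numbers pair libraries, and deviations of same-numbered libraries correlated between -0.161 and 0.205 over 28 pairs. DESeq2 called 28, 29 and 20 members in WT and 32, 35 and 25 in KO, and limma-trend 22, 29 and 22 and 28, 33 and 24. Low counts limit the ligands most, since 21 of 36 could not be tested.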
